A study of Mus musculus with 12 samples.

Results

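Transcripts of the glypicans and syndecans, the cell-surface carriers of heparan sulfate, were followed across 4 sorted populations of dermal fibroblasts. The list names 9 genes, Gpc1, Gpc2, Gpc3, Gpc4, Gpc6, Sdc1, Sdc2, Sdc3 and Sdc4. A probe set with 1 gene symbol was found for 7 of them, out of 17097 genes measured, and the other 2, Gpc3 and Sdc1, were not analysed here. Where several probe sets read a gene, the brightest on average stands for it. The cells came from the skin of 3 female littermate mice aged 2 days of a strain the sources used here do not name, and each population of each animal was measured on 1 array. The populations were CD26+ papillary (Dlk1- Sca1-), Dlk1- Sca1+ pre-adipogenic (CD26-), Dlk1+ Sca1+ pre-adipogenic (CD26-) and Dlk1+ reticular (CD26- Sca1-) cells, with n = 3 arrays each. All were sorted as Pdgfra+ CD34+ and without CD45, CD117, CD31 and EpCam, after the subdermal layer had been taken off, and RNA of 4500 cells per sample was amplified over 21 cycles. The populations are gates on surface proteins, so each can hold more than 1 cell state.

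Heparan sulfate is a long, sulfated sugar chain built on a core protein. Glypicans hold it at the outer leaflet of the membrane by a lipid anchor, and syndecans hold it on a protein that spans the membrane and has a short cytoplasmic tail. The chains bind growth factors such as FGFs, Wnts, Hedgehogs and BMPs and matrix proteins such as fibronectin, and their sulfation pattern sets what they bind. In skin, syndecans are known from cell adhesion and wound repair, and glypicans from the control of Wnt and Hedgehog signals.

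Levels below are log2 values from RMA, a method that corrects, scales and summarises the probes of an array. Differences are log2 differences of means, the first-named population minus the second, with the standard error (SE) from limma, a linear model fitted to all genes. A gene was called when its p-value, adjusted by Benjamini-Hochberg over all 17097 genes, was under 0.05. Levels of different genes are not compared, because each probe set has its own response. The arrays carry the mRNA of the core proteins only and say nothing of the sugar chains. In sorted bulk samples, fewer cells of a type with the transcript and less transcript per cell cannot be told apart.

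Of the genes behind the sort, Dpp4 and Dlk1 were highest where their proteins were gated for, and the gene of Sca1 is not shown here. Dpp4, the gene of the CD26 protein, had a level of 10.18 to 10.97 on papillary arrays and of 6.10 to 6.53 on all others. Dlk1 was at 12.82 to 13.04 in the populations sorted as Dlk1+, at 11.18 to 11.54 in Dlk1- Sca1+ cells and at 9.82 to 10.10 in papillary cells. Cd34 was at 9.78 to 10.35 and Pdgfra at 6.59 to 8.03 over all arrays. Pecam1, the gene of CD31, was at 6.94 to 7.09 on papillary arrays and at 7.46 to 8.74 on the others. It was called lower in papillary cells than in each other population. Fibroblast markers averaged 11.42 to 11.52 on papillary arrays and 11.03 to 11.24 on the others. Of these 6 markers, 2 were called higher in papillary cells than in each other population, Col1a2 and Lum, with none lower. Among all genes, 13.1% to 14.1% were higher in these comparisons. Mean levels of 10 keratinocyte markers ran from 6.23 to 8.06 on 11 arrays and reached 9.68 on the Dlk1- Sca1+ array of animal 1, where Epcam was at 8.62 against 5.62 to 6.73 elsewhere. Means of endothelial markers were 6.55 to 6.68 on papillary and 6.67 to 7.04 on Dlk1- Sca1+ arrays. They were 6.87 to 7.44 on Dlk1+ Sca1+ and 6.97 to 7.15 on reticular arrays. Of these 10 markers, 3 were lower in papillary than in reticular cells and 4 lower than in Dlk1+ Sca1+ cells, with none higher. Over all genes 13.6% and 13.9% were lower there. Against Dlk1- Sca1+ cells 1 was higher and 1 lower. Means of immune markers lay between 5.34 and 5.68. RMA gives no marker a value of 0.

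Glypican and syndecan transcripts differed between the populations in 6 of 7 cases, by a moderated F-test over the 4 populations. The share called among all genes was 35.7%. Gpc6 was much lower in Dlk1- Sca1+ cells than in any other population, and Sdc2 was higher in papillary cells than in any other. Gpc1, Gpc2, Gpc4 and Sdc3 had their highest mean in reticular cells, and Sdc4 was not called. Without animal 3, that is without 4 arrays, 3 of 7 members passed the F-test.

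**Figure D1:**
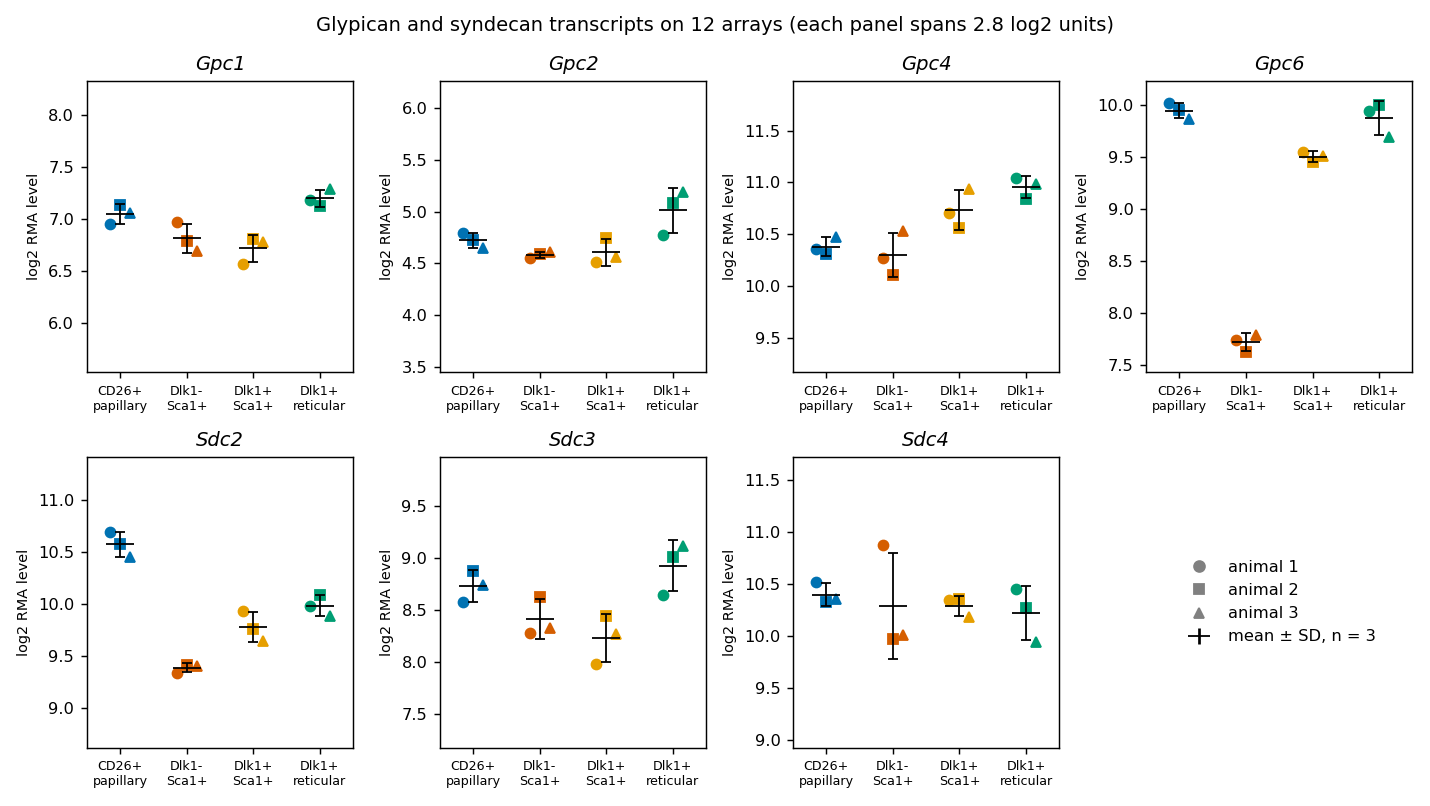
Log2 RMA level (vertical axis) of each of the 7 measured members in CD26+ papillary, Dlk1- Sca1+, Dlk1+ Sca1+ and Dlk1+ reticular cells (horizontal axis), 1 symbol per animal, with mean ± SD (n = 3). Gpc6 lay at 7.62 to 7.79 in Dlk1- Sca1+ cells and at 9.45 or above on all other arrays.

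Gpc6, a glypican best known for its part in the growth of long bones, had the largest differences of the family. It was at 10.02, 9.95 and 9.87 in papillary cells of animals 1 to 3, at 7.74, 7.62 and 7.79 in Dlk1- Sca1+ cells, at 9.55, 9.45 and 9.51 in Dlk1+ Sca1+ cells, and at 9.94, 10 and 9.69 in reticular cells. The 3 Dlk1- Sca1+ arrays thus lay well below the other 9, with no overlap. The Dlk1- Sca1+ minus Dlk1+ Sca1+ difference was -1.79 ± 0.09, a 3.45-fold lower level (adjusted p = 2.83e-07, limma), and only 0.193% of all genes differed more in that comparison. Against reticular cells the Dlk1- Sca1+ difference was -2.16 ± 0.09, a 4.47-fold lower level (adjusted p = 9.75e-09, limma), and papillary minus Dlk1- Sca1+ was 2.23 ± 0.09 (adjusted p = 1.2e-09, limma). The direction was the same in 3 of 3 animals in each of these comparisons.

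Among the other 3 populations Gpc6 varied less. Papillary minus reticular was 0.07 ± 0.09 (adjusted p = 0.677, limma), with a 95% interval from -0.12 to 0.26. Dlk1+ Sca1+ cells, which carry both surface markers, were lower than reticular cells, at -0.37 ± 0.09 (adjusted p = 0.0205, limma). That call was lost when only these 2 populations entered the fit (adjusted p = 0.0643, limma) and without animal 1, animal 2, Dlk1+ Sca1+ replicates 2 and 3, or reticular replicates 1 and 2. The step from Dlk1+ Sca1+ to papillary cells was called, at 0.44 ± 0.09 for papillary minus Dlk1+ Sca1+ (adjusted p = 0.00195, limma).

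Gpc6 is read by 4 probe sets, and they did not all behave alike. In the 3 brighter ones the Dlk1- Sca1+ minus Dlk1+ Sca1+ difference was -1.79, -1.75 and -1.68, each called. In the dimmest, with a mean of 7.56 over 12 arrays, it was -0.17 ± 0.17 (adjusted p = 0.732, limma), and that probe set was called in none of the 6 comparisons. It stood at 7.73, 7.43, 7.60 and 7.46 in papillary, Dlk1- Sca1+, Dlk1+ Sca1+ and reticular cells, with no population apart from the rest. Which transcript each probe set reads was not analysed here.

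**Figure D2:**
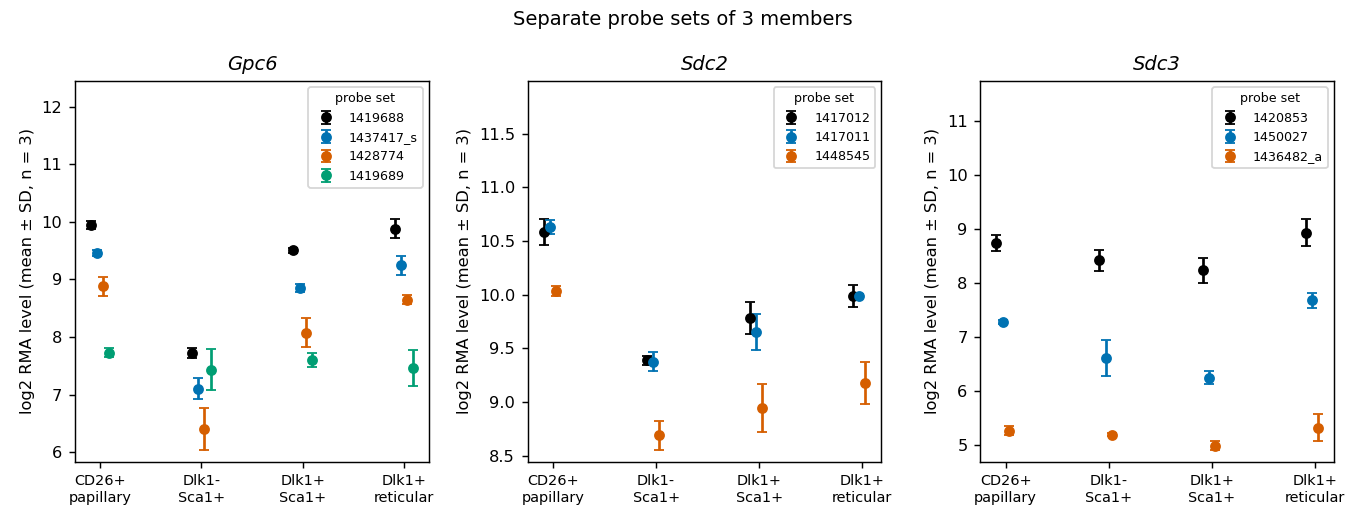
Mean log2 RMA level ± SD (vertical axis, n = 3) of each probe set of Gpc6, Sdc2 and Sdc3 in the 4 populations (horizontal axis), labelled by the number in the probe set's name. For Gpc6, 3 of 4 probe sets were low in Dlk1- Sca1+ cells and the dimmest was not. All 3 of Sdc2 were highest in papillary cells.

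Gpc4, a glypican known to bind FGF and Wnt proteins and to act on insulin signalling in fat, was higher in both populations sorted as Dlk1+. It was at 10.36, 10.31 and 10.48 in papillary cells of animals 1 to 3, at 10.27, 10.11 and 10.53 in Dlk1- Sca1+ cells, at 10.71, 10.56 and 10.94 in Dlk1+ Sca1+ cells, and at 11.04, 10.84 and 10.99 in reticular cells. The Dlk1+ arrays lay above the Dlk1- arrays in every animal. Dlk1- Sca1+ minus reticular was -0.65 ± 0.12 (adjusted p = 0.00174, limma) and papillary minus reticular -0.57 ± 0.12 (adjusted p = 0.00242, limma, and 0.0554 without animal 1). The differences from Dlk1+ Sca1+ cells were smaller and less secure, at -0.43 ± 0.12 for Dlk1- Sca1+ cells (adjusted p = 0.0442, limma) and -0.35 ± 0.12 for papillary cells (adjusted p = 0.0414, limma). With arrays centred on their medians these had adjusted p = 0.0564 and 0.0588 by limma, and both calls were lost without any 1 of the 3 animals. Both were also lost without Dlk1+ Sca1+ replicate 1 or 3, that of papillary cells without papillary replicate 1 or 2, and that of Dlk1- Sca1+ cells without Dlk1- Sca1+ replicate 1 or 2 or with only the 2 populations in the fit.

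Of the neighbours in the order of Gpc4, the pairs at either end were not called. Dlk1+ Sca1+ minus reticular was -0.22 ± 0.12 (adjusted p = 0.374, limma), and papillary minus Dlk1- Sca1+ was 0.08 ± 0.12 (adjusted p = 0.73, limma). Pericyte and smooth muscle markers, which were also highest in reticular cells, averaged 6.37 to 6.50 on papillary arrays, 6.88 to 7.19 on Dlk1- Sca1+ arrays, 7.14 to 7.95 on Dlk1+ Sca1+ arrays and 7.70 to 8.57 on reticular arrays. In Dlk1- Sca1+ against reticular cells 3 of 7 of these markers and 4 of 8 skeletal muscle markers were lower and none higher. Over all genes 8.8% were lower and 9.36% higher there. Skeletal muscle markers averaged 6.35 to 6.59 on reticular arrays and 5.52 to 6.13 on the others. The part of both marker sets in the levels of Gpc4, Gpc1, Gpc2 and Sdc3 was not tested.

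Gpc1, a glypican widely made in adult tissues and known as a co-receptor for FGFs, was lowest in the Sca1+ cells. It was at 6.95, 7.14 and 7.06 in papillary cells of animals 1 to 3, at 6.97, 6.79 and 6.69 in Dlk1- Sca1+ cells, at 6.57, 6.81 and 6.78 in Dlk1+ Sca1+ cells, and at 7.19, 7.13 and 7.29 in reticular cells. Every Sca1+ array lay below every reticular array. Dlk1+ Sca1+ minus reticular was -0.48 ± 0.10 (adjusted p = 0.00644, limma) and Dlk1- Sca1+ minus reticular -0.39 ± 0.10 (adjusted p = 0.0122, limma). Papillary minus Dlk1+ Sca1+ was 0.33 ± 0.10 (adjusted p = 0.0188, limma).

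Papillary minus Dlk1- Sca1+ was 0.23 ± 0.10 for Gpc1 and was not called (adjusted p = 0.0958, limma). It was 0.31 without the Dlk1- Sca1+ array of animal 1, the one with high keratinocyte markers, and was then called (adjusted p = 0.0401, limma). Neither pair of neighbours at the ends of the order differed beyond the spread, with papillary minus reticular at -0.15 ± 0.10 (adjusted p = 0.299, limma) and Dlk1- Sca1+ minus Dlk1+ Sca1+ at 0.10 ± 0.10 (adjusted p = 0.717, limma). All 3 calls were lost without animal 2 or animal 3. The call against Dlk1+ Sca1+ cells was also lost without papillary replicate 2 or 3 or Dlk1+ Sca1+ replicate 1, and that of Dlk1- Sca1+ minus reticular without replicate 3 of either.

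Gpc2, a glypican known mainly from developing neurons, was near the low end of the scale, and RMA understates differences there. It was at 4.79, 4.73 and 4.65 in papillary cells of animals 1 to 3, at 4.55, 4.59 and 4.61 in Dlk1- Sca1+ cells, at 4.51, 4.75 and 4.56 in Dlk1+ Sca1+ cells, and at 4.77, 5.08 and 5.19 in reticular cells. The reticular arrays of animals 2 and 3 stood above the rest, and that of animal 1 was within the papillary range. Dlk1- Sca1+ minus reticular was -0.43 ± 0.10 (adjusted p = 0.011, limma), and Dlk1+ Sca1+ minus reticular was -0.41 ± 0.10 (adjusted p = 0.029, limma, and 0.0952 with only these 2 populations in the fit). Papillary minus reticular was -0.29 ± 0.10 (adjusted p = 0.056, limma), and with the animal as a block it was called at adjusted p = 0.0384 by limma, as it was after repeated quantile normalization (adjusted p = 0.0424, limma). It was -0.41 (adjusted p = 0.00444, limma) without reticular replicate 1. Only 12.6% of genes had a lower mean over the 12 arrays. Both calls against reticular cells were lost without animal 2, animal 3 or reticular replicate 3, and that of Dlk1+ Sca1+ cells also without Dlk1+ Sca1+ replicates 1 or 3 or reticular replicate 2.

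Among the syndecans, Sdc2, which is known from mesenchymal cells and binds growth factors and matrix, was highest in papillary cells. It was at 10.70, 10.58 and 10.46 in papillary cells of animals 1 to 3, at 9.34, 9.42 and 9.41 in Dlk1- Sca1+ cells, at 9.94, 9.76 and 9.65 in Dlk1+ Sca1+ cells, and at 9.98, 10.09 and 9.89 in reticular cells. All 3 papillary arrays lay above the other 9, and all 3 Dlk1- Sca1+ arrays lay below the other 9. Papillary cells exceeded Dlk1- Sca1+ cells by 1.19 ± 0.09, a 2.28-fold higher level (adjusted p = 4.94e-07, limma). They exceeded Dlk1+ Sca1+ cells by 0.80 ± 0.09 (adjusted p = 1.96e-05, limma) and reticular cells by 0.59 ± 0.09 (adjusted p = 0.000283, limma). The same direction was seen in 3 of 3 animals and called in 3 of 3 probe sets in each of these comparisons. Fibroblast markers were also highest on papillary arrays, and their part in the levels of Sdc2 was not tested.

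At the other end of its order, Sdc2 was lower in Dlk1- Sca1+ than in reticular cells, at -0.60 ± 0.09 (adjusted p = 0.000527, limma), again in 3 of 3 probe sets. Dlk1- Sca1+ minus Dlk1+ Sca1+ was -0.39 ± 0.09 (adjusted p = 0.0193, limma), but only 1 of 3 probe sets was called. That call was lost without any 1 of the 3 animals, without Dlk1- Sca1+ replicates 1 or 3 or Dlk1+ Sca1+ replicate 1, and with only the 2 populations in the fit (adjusted p = 0.0505, limma). Dlk1+ Sca1+ minus reticular, neighbours in the order with overlapping ranges, was not called, at -0.20 ± 0.09 (adjusted p = 0.255, limma), while the second probe set gave -0.34 (adjusted p = 0.0326, limma).

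Sdc3, the syndecan known from the nervous system and from muscle precursor cells, varied along with the animal. It was at 8.58, 8.88 and 8.74 in papillary cells of animals 1 to 3, at 8.28, 8.63 and 8.33 in Dlk1- Sca1+ cells, at 7.98, 8.44 and 8.27 in Dlk1+ Sca1+ cells, and at 8.65, 9.01 and 9.12 in reticular cells. Animal 1 was the lowest in every population. Within each animal the order was reticular, papillary, Dlk1- Sca1+ and Dlk1+ Sca1+, from high to low. Dlk1+ Sca1+ minus reticular was -0.70 ± 0.15 (adjusted p = 0.0103, limma, and 0.212 without animal 3), and Dlk1- Sca1+ minus reticular was -0.51 ± 0.15 (adjusted p = 0.0287, limma).

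Papillary minus Dlk1+ Sca1+ was 0.50 ± 0.15 for Sdc3 (adjusted p = 0.021, limma). Papillary minus Dlk1- Sca1+ was 0.32 ± 0.15 (adjusted p = 0.146, limma), and with the animal as a block it was called at adjusted p = 0.0128 by limma. Neighbours in the order otherwise did not pass by the brightest probe set. Papillary minus reticular was at -0.19 ± 0.15 (adjusted p = 0.425, limma) and Dlk1- Sca1+ minus Dlk1+ Sca1+ at 0.18 ± 0.15 (adjusted p = 0.627, limma). After repeated quantile normalization the calls of papillary minus Dlk1+ Sca1+ and of Dlk1- Sca1+ minus reticular were lost (adjusted p = 0.0575 and 0.0587, limma), as they were without animal 2 or animal 3. The first was also lost without papillary replicate 2 or 3 or Dlk1+ Sca1+ replicate 1, and the second without replicate 3 or 1 of Dlk1- Sca1+ or replicate 2 or 3 of reticular cells.

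A second probe set of Sdc3 gave larger differences in the same directions. It was at 7.26 ± 0.04 in papillary, 6.61 ± 0.33 in Dlk1- Sca1+, 6.24 ± 0.13 in Dlk1+ Sca1+ and 7.67 ± 0.14 in reticular cells (SD, n = 3). Dlk1+ Sca1+ minus reticular was -1.43 ± 0.14 there (adjusted p = 3.46e-05, limma) and papillary minus Dlk1- Sca1+ was 0.66 ± 0.14 (adjusted p = 0.00302, limma). Papillary minus reticular, not called with the brightest probe set, was called with this one, at -0.41 ± 0.14 (adjusted p = 0.043, limma). The third, with a mean of 5.18, was called in none of the 6 comparisons. Schwann cell and melanocyte markers, read beside it, averaged 6.07 to 6.16 on papillary, 6.38 to 7.42 on Dlk1- Sca1+, 6.43 to 6.94 on Dlk1+ Sca1+ and 6.24 to 6.37 on reticular arrays. Of these 7 markers, 4 were called in papillary against Dlk1- Sca1+ cells, all lower, where 13.3% of all genes were lower. These 4 markers were Dct, Pmel, Tyrp1 and Mitf, genes of melanocytes. Their part in the levels of Sdc3 was not tested.

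Sdc4, the syndecan of focal adhesions, had adjusted p from 0.632 to 0.992 in the 6 comparisons by limma, and none was called. It was at 10.52, 10.32 and 10.35 in papillary cells of animals 1 to 3, at 10.87, 9.97 and 10.01 in Dlk1- Sca1+ cells, at 10.34, 10.35 and 10.18 in Dlk1+ Sca1+ cells, and at 10.45, 10.27 and 9.94 in reticular cells. The populations overlapped, and the highest value of all came from the Dlk1- Sca1+ array of animal 1. The 6 differences were between -0.01 and 0.18, with an SE of 0.20, and the 95% interval of papillary minus reticular ran from -0.26 to 0.61. These arrays leave room for differences of that size.

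The array with the highest Sdc4 was also the one with the highest keratinocyte markers. It had the highest Schwann cell and melanocyte markers as well, at 7.42 against 6.07 to 6.94 on the other arrays. The part of RNA from any of these cells in this value was not tested. Of the 10 keratinocyte markers, 1 was called between Dlk1- Sca1+ and reticular cells (higher, as were 9.36% of all genes). Between papillary and Dlk1- Sca1+ cells 1 was called (lower, as were 13.3% of all genes). The mean of the 10 markers was 6.23 to 7.55 on papillary, 7.15 to 9.68 on Dlk1- Sca1+, 6.95 to 8.06 on Dlk1+ Sca1+ and 6.39 to 7.87 on reticular arrays. Without that 1 array, papillary minus Dlk1- Sca1+ was 0.41 ± 0.13 for Sdc4 and was called (adjusted p = 0.0412, limma), and Dlk1- Sca1+ minus reticular was -0.23 ± 0.13 (adjusted p = 0.327, limma).

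**Figure D3:**
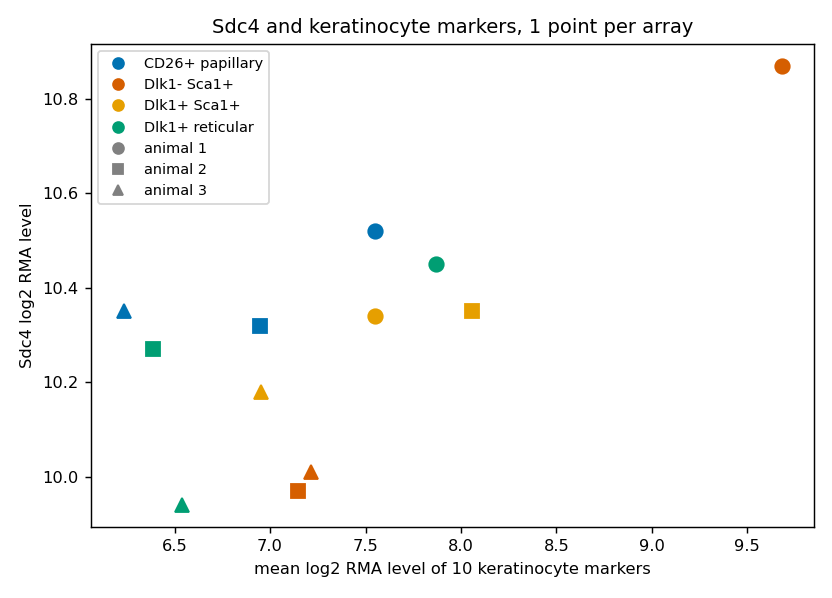
Sdc4 level (vertical axis, log2 RMA) against the mean log2 RMA level of 10 keratinocyte markers (horizontal axis), with 1 point per array, colour for population and shape for animal. The Dlk1- Sca1+ array of animal 1 stands apart on both axes, at 9.68 and 10.87.

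Promoter sequence is shown for Gpc4 and Sdc3, both highest in reticular cells, and for Sdc4, the member called in no comparison. RefSeq windows were found for 4 of the 7 measured genes, and each line gives the 250 bases before the annotated start, 5′ to 3′ on the gene's strand, in build GRCm38.p6. They lie at chrX:52164924-52165173 on the minus strand for Gpc4, chr4:130792287-130792536 on the plus strand for Sdc3 and chr2:164443189-164443438 on the minus strand for Sdc4. Capitals mark matches on either strand to the GC box GGGCGG, to TATAA, to CCAAT or to the E box CACGTG. No match overlaps another.
Gpc4: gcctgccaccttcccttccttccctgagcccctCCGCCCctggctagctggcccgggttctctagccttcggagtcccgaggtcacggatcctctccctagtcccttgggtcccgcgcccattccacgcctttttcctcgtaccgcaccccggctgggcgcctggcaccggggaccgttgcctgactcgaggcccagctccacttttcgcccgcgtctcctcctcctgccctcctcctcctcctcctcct
Sdc3: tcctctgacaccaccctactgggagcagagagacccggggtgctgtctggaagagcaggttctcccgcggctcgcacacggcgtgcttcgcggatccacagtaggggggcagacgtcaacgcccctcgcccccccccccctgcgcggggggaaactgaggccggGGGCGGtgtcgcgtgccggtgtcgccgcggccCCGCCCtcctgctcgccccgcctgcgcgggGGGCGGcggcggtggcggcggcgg
Sdc4: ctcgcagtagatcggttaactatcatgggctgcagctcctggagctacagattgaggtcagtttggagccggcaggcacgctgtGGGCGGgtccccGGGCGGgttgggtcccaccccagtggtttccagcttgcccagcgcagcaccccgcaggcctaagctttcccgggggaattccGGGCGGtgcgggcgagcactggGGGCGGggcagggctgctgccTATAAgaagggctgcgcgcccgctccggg

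All 3 windows are rich in G and C, at 68.4% for Gpc4, 76.4% for Sdc3 and 68% for Sdc4. The GC box, which binds factors of the Sp family, occurs 1 time in Gpc4, 3 times in Sdc3 and 4 times in Sdc4, and 32.7% of 32851 RefSeq windows of that length hold at least 1. The letters TATAA occur in the Sdc4 window only, with the first base 29 bases before the start, and 22.8% of all windows hold them. CCAAT and CACGTG, which 33.8% and 6.02% of windows hold, were in none of the 3. These matches describe the sequence and were not tested as binding sites.

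Set by comparison, the family differed most often between Dlk1- Sca1+ and reticular cells. There, 6 of 7 members were called, all lower in Dlk1- Sca1+ cells, where 18.2% of all genes were called, 9.36% higher and 8.8% lower. The median difference of the 7 was -0.51, against -0.01 over all genes. Without 1 animal or 1 array, 3 to 6 members were called. The count was 3 without animal 2, animal 3 or reticular replicate 3.

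In Dlk1+ Sca1+ against reticular cells 4 of 7 were called, Gpc1, Gpc2, Gpc6 and Sdc3, all lower in Dlk1+ Sca1+ cells, with 8.43% of all genes called, 4.06% higher and 4.37% lower. The median of the 7 differences was -0.37, against -0.01 over all genes. With only these 2 populations in the fit the count was 2, and it was 1 without animal 2 or animal 3 and 2 without Dlk1+ Sca1+ replicate 3 or reticular replicate 2. In Dlk1- Sca1+ against Dlk1+ Sca1+ cells 3 of 7 were called, Gpc4, Gpc6 and Sdc2, again all lower, with 7.36% of all genes called, 3.23% higher and 4.13% lower. That count was 1 with only the 2 populations in the fit, and 1 without any 1 animal, without Dlk1- Sca1+ replicate 1 or without Dlk1+ Sca1+ replicate 1. In Dlk1- Sca1+ minus Dlk1+ Sca1+, Gpc6 kept its call under every setting listed for it, while in Dlk1+ Sca1+ minus reticular it did not.

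Called differences of papillary cells went both ways against Dlk1+ Sca1+ and reticular cells, and only upward against Dlk1- Sca1+ cells. Against Dlk1+ Sca1+ cells 5 of 7 were called, with Gpc1, Gpc6, Sdc2 and Sdc3 higher and Gpc4 lower in papillary cells, where 28% of all genes were called, 14.1% higher and 13.9% lower. Without animal 2, animal 3, papillary replicate 2 or Dlk1+ Sca1+ replicate 1 the count was 2, and without papillary replicate 3 it was 3. Against reticular cells 2 of 7 were called, Sdc2 higher and Gpc4 lower, a share near the 27.5% of all genes, with 13.9% higher and 13.6% lower. Against Dlk1- Sca1+ cells 2 of 7 were called, Gpc6 and Sdc2, both higher, where 26.4% of all genes were called, 13.1% higher and 13.3% lower. Without the Dlk1- Sca1+ array of animal 1 that count was 4, with Gpc1 and Sdc4 added. These comparisons share arrays, so their counts are not independent.

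**Figure D4:**
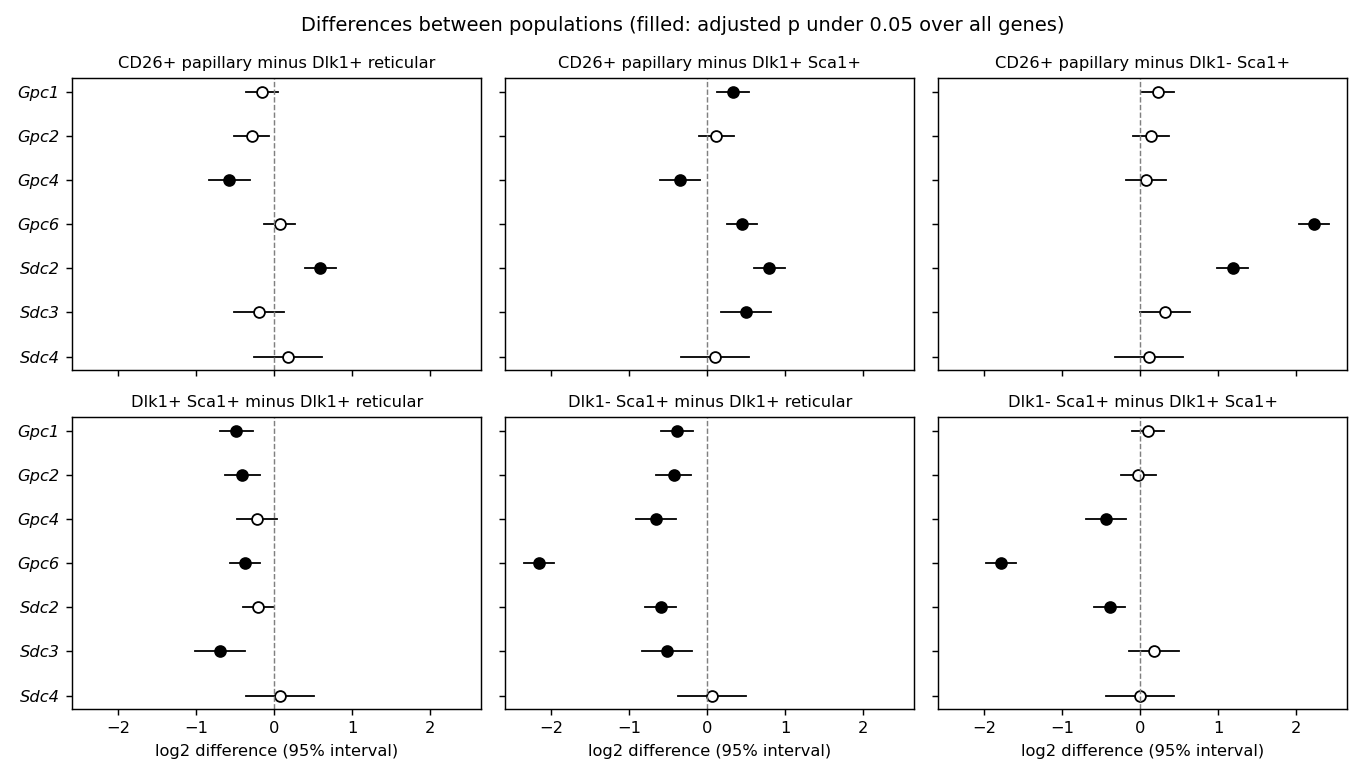
Log2 difference of means with its 95% interval from limma (horizontal axis) for each of the 7 members (vertical axis) in the 6 comparisons, with filled points at an adjusted p under 0.05. Gpc6 stands at -2.16 and -1.79 in Dlk1- Sca1+ against reticular and Dlk1+ Sca1+ cells, and the other points lie between -0.70 and 1.19 except Gpc6 in papillary against Dlk1- Sca1+ cells.

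Of the measured enzymes that build and trim the chains, Pxylp1, Ndst3 and Sulf1 had larger log2 differences than any core protein, and the rest did not. Each probe set has its own response, so sizes compare only roughly between genes. The list of chain synthesis held 10 measured genes, from the linker to the EXT polymerases. In papillary against Dlk1+ Sca1+ cells 3 were higher and 1 was lower, against reticular cells 2 were higher and 2 lower, and against Dlk1- Sca1+ cells 1 was higher and 1 lower. None of the 10 was called in the comparisons without papillary cells. Over all genes, 27.5%, 28% and 26.4% were called in papillary against reticular, Dlk1+ Sca1+ and Dlk1- Sca1+ cells. They were 8.43% in Dlk1+ Sca1+ against reticular, 18.2% in Dlk1- Sca1+ against reticular and 7.36% in Dlk1- Sca1+ against Dlk1+ Sca1+ cells. The counts of this list and of those that follow stand beside these shares, and no list was tested against them. The median difference of the list lay between -0.05 and 0.07, and that of all genes between -0.01 and 0.01. The largest difference was that of Pxylp1, a phosphatase that acts on the xylose of the linker, at 8.09 ± 0.34 in papillary cells and 5.41 ± 0.32, 5.36 ± 0.45 and 6.07 ± 0.25 in Dlk1- Sca1+, Dlk1+ Sca1+ and reticular cells (SD, n = 3). Papillary minus Dlk1+ Sca1+ was 2.73 ± 0.23 for it (adjusted p = 1.27e-06, limma). Extl3, which starts the chain, was higher by 0.34 ± 0.09 (adjusted p = 0.0141, limma) in that comparison, and Ext1, a subunit of the polymerase, was at -0.33 ± 0.10 (adjusted p = 0.0299, limma) in papillary minus reticular cells. The linker enzyme B3galt6 was at -0.64 ± 0.22 in papillary minus Dlk1- Sca1+ cells (adjusted p = 0.0498, limma). When all probe sets were fitted singly, 0 of its 3 were called there. The calls of Extl3, Ext1 and B3galt6 were each lost without animal 2 or without animal 3. That of Extl3 was also lost without animal 1, and those of Ext1 and B3galt6 also with arrays centred on their medians.

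Chain modification genes moved in both directions. Of 16 measured, 4 were higher and 4 lower in papillary against reticular cells, 4 higher and 3 lower against Dlk1+ Sca1+ cells, and 4 higher and 3 lower against Dlk1- Sca1+ cells. In Dlk1+ Sca1+ against reticular cells 3 were lower, in Dlk1- Sca1+ against reticular cells 2 were higher and 4 lower, and in Dlk1- Sca1+ against Dlk1+ Sca1+ cells 1 was higher and 1 lower. The median differences of the list lay between -0.14 and 0.11.

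Sulf1 and Sulf2, secreted enzymes that remove 6-O-sulfate groups from finished chains, went opposite ways in papillary cells. Sulf1 was at 6.42, 6.73 and 7.09 in papillary cells of animals 1 to 3, at 9.10, 9.27 and 9.40 in Dlk1- Sca1+ cells, at 9.93, 9.84 and 9.74 in Dlk1+ Sca1+ cells, and at 10.86, 10.89 and 10.68 in reticular cells. The 4 populations did not overlap. Papillary minus reticular was -4.06 ± 0.14, a 16.7-fold lower level (adjusted p = 4.88e-10, limma), and it was called lower in 3 of 3 probe sets. Against Dlk1+ Sca1+ and Dlk1- Sca1+ cells it was at -3.09 ± 0.14 and -2.51 ± 0.14, each called in 1 of 3 probe sets.

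Sulf2 was at 12.17, 12.19 and 12.13 in papillary cells of animals 1 to 3, at 10.77, 10.78 and 11.09 in Dlk1- Sca1+ cells, at 11.17, 11.12 and 11.37 in Dlk1+ Sca1+ cells, and at 11.56, 11.67 and 11.57 in reticular cells. It was thus highest where Sulf1 was lowest. Papillary minus Dlk1- Sca1+ was 1.28 ± 0.10 (adjusted p = 3.72e-07, limma), in 2 of 2 probe sets, and papillary minus reticular was 0.56 ± 0.10 (adjusted p = 0.000602, limma), in 1 of 2. Both sulfatases were lower in Dlk1- Sca1+ than in reticular cells, at -1.55 ± 0.14 for Sulf1 and -0.72 ± 0.10 for Sulf2. Sulf2, Hs2st1, Hs6st1 and Mdk are named here after their values were seen.

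The sulfotransferases that add sulfate also differed by gene. Ndst3, which swaps acetyl for sulfate groups at the start of modification, was at 9.32, 8.76 and 9.22 in papillary cells of animals 1 to 3, against 5.29 to 5.91 on the 9 other arrays. Papillary minus Dlk1+ Sca1+ was 3.64 ± 0.14, a 12.4-fold higher level (adjusted p = 9.28e-10, limma), in 2 of 2 probe sets, and among the other 3 populations Ndst3 was not called. Hs3st6, a 3-O-sulfotransferase, exceeded its Dlk1+ Sca1+ level by 1.51 ± 0.11 in papillary cells and Hs6st1 by 0.95 ± 0.08, while its relative Hs6st2 was at -1.31 ± 0.10 in papillary minus Dlk1- Sca1+ cells. Hs2st1, the 2-O-sulfotransferase, was at 8.64, 8.50 and 8.62 in papillary cells, at 9.63, 9.59 and 9.84 in Dlk1- Sca1+ cells, at 9, 9.05 and 9.09 in Dlk1+ Sca1+ cells, and at 9.03, 9.04 and 8.94 in reticular cells. It was highest in Dlk1- Sca1+ cells, where Gpc6 was lowest, by 0.64 ± 0.08 over Dlk1+ Sca1+ cells (adjusted p = 0.000275, limma).

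**Figure D5:**
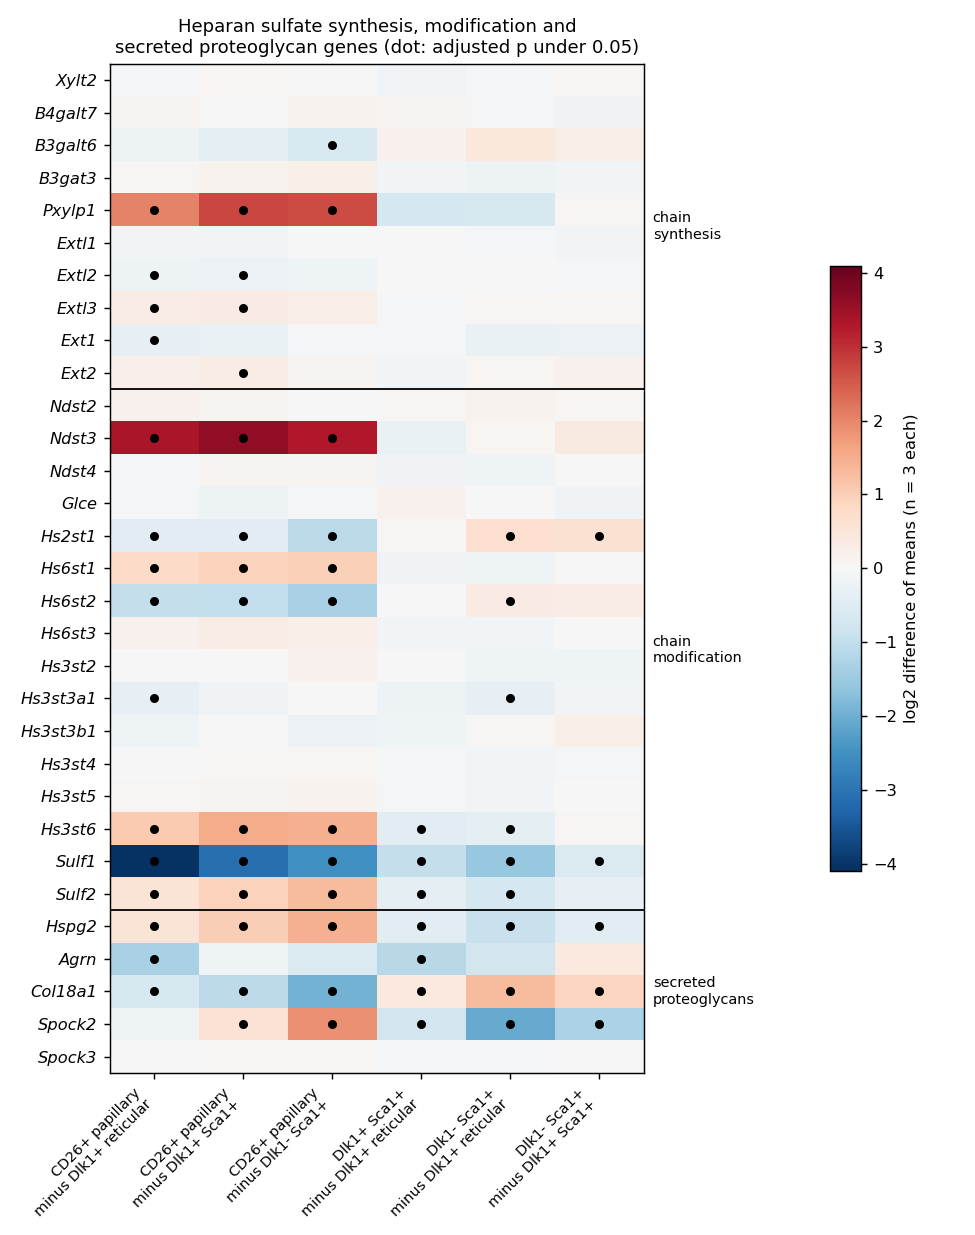
Log2 differences (colour, red for higher and blue for lower in the first-named population) of chain synthesis, chain modification and secreted proteoglycan genes (rows) in the 6 comparisons (columns), with a dot where the adjusted p was under 0.05. Ndst3 and Pxylp1 are red and Sulf1 is blue in the 3 columns of papillary cells.

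Of the secreted heparan sulfate proteoglycans, 5 were measured, with list medians between -0.75 and 0.05 over the 6 comparisons. Hspg2, which encodes perlecan of basement membranes, was at 11.71 ± 0.08 in papillary, 10.25 ± 0.08 in Dlk1- Sca1+, 10.70 ± 0.12 in Dlk1+ Sca1+ and 11.16 ± 0.16 in reticular cells (SD, n = 3). Its order was that of Sdc2, and papillary minus Dlk1- Sca1+ was 1.47 ± 0.10 (adjusted p = 9.92e-08, limma). Col18a1, a collagen that carries heparan sulfate, was highest in Dlk1- Sca1+ cells, at 7.34 ± 0.08 in papillary, 9.30 ± 0.01 in Dlk1- Sca1+, 8.41 ± 0.14 in Dlk1+ Sca1+ and 8.01 ± 0.17 in reticular cells. Dlk1- Sca1+ minus Dlk1+ Sca1+ was 0.88 ± 0.10 for it (adjusted p = 9.81e-05, limma).

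Spock2, a testican of the matrix, was low in Dlk1- Sca1+ cells, as Gpc6 was. Its Dlk1- Sca1+ minus reticular difference was -2.06 ± 0.18 (adjusted p = 4.78e-06, limma). Agrn, the agrin gene, was lower in papillary than in reticular cells, at -1.33 ± 0.26 (adjusted p = 0.00154, limma) and was at 9.46 on the Dlk1- Sca1+ array of animal 1, against 8.04 and 8.29 on those of animals 2 and 3. That array is the one with the highest keratinocyte markers and the highest Schwann cell and melanocyte markers. The part of these cells in this value was not tested. The call in papillary minus reticular cells held without each animal in turn. The list had 1 gene higher and 2 lower in papillary against reticular cells, 2 higher and 1 lower against either Sca1+ population, 1 higher and 3 lower in Dlk1+ Sca1+ against reticular cells, and 1 higher and 2 lower in Dlk1- Sca1+ against reticular and against Dlk1+ Sca1+ cells.

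Some membrane proteins carry the chains only at times. Of these 3 were measured, with list medians between -0.27 and 0.10. Tgfbr3, a co-receptor of TGF-beta, was lower in papillary cells in each of the 3 comparisons, at -0.50 ± 0.07 (adjusted p = 0.000151, limma) against Dlk1+ Sca1+ cells. Its call against Dlk1- Sca1+ cells was lost without animal 2 or animal 3. Nrp1, a receptor of semaphorins and VEGF, was lower in Dlk1+ Sca1+ than in reticular cells, at -0.45 ± 0.09 (adjusted p = 0.00561, limma), a call lost without animal 2 or animal 3. The list had 2 lower in papillary against reticular cells and 1 lower in every other comparison except Dlk1- Sca1+ against Dlk1+ Sca1+ cells.

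Of 15 measured genes for enzymes that cleave and proteins that bind glypicans and syndecans, 3 were higher and 4 lower in papillary against reticular cells, 2 and 6 against Dlk1+ Sca1+ cells, and 3 and 6 against Dlk1- Sca1+ cells. Between the other populations 1 to 3 were called, and the list medians lay between -0.20 and 0.04. Pcsk5, a proprotein convertase, was at -2.82 ± 0.12 in papillary minus Dlk1- Sca1+ cells (adjusted p = 2.64e-09, limma, in 2 of 3 probe sets). Furin, the convertase known to cleave glypicans, was at -0.67 ± 0.09 in the same comparison (adjusted p = 5.72e-05, limma), and Pcsk6 was higher by 0.57 ± 0.11 in papillary minus reticular cells. Cask, a scaffold protein that binds the tails of syndecans, exceeded its Dlk1+ Sca1+ level in papillary cells by 1.12 ± 0.08 (adjusted p = 1.66e-07, limma), so it was high in the population with the highest Sdc2.

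For the 3 members with the widest range of population means, the genes with the most similar pattern were sought, by the root mean square difference over 12 arrays after each gene was centred on its own mean. For Gpc6, whose own SD over the arrays was 0.95, these were Tgfbi at 0.23, Smoc2 at 0.26 and Spock2 at 0.28, all genes of matrix proteins. For Sdc2 (SD 0.46) they were Lum, also on the list of fibroblast markers, at 0.11, Tcf12 at 0.12 and Slc8a1 at 0.13. For Sdc3 (SD 0.33) they were Cacna1h at 0.12, Tnfrsf21 at 0.15 and Fgf21 at 0.15. These distances, in log2 units, describe these 12 arrays and were not tested.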

How the data were processed

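Dermal fibroblasts of 3 littermates, sorted into 4 populations, were measured on 12 arrays. The authors deposited log2 expression values, for which the submitters' processing notes name RMA and affy. Their versions are not given in the sources used here. The deposited log2 values run from 3.30 to 13.27, and array medians are 6.21 to 6.34. RMA scales the arrays to a common distribution, and amplification over 21 cycles can compress differences. The table holds 45141 probe sets, of which 28898 carry 1 symbol in the platform annotation and stand for 17097 genes. Dim genes were kept.

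All 12 arrays were fitted together with limma 3.58.1 under R 4.3.3. The model had a mean per population, 8 residual and 4.475 prior degrees of freedom, 6 contrasts and an F-test. The fit was tested on simulated data. Named pathway genes are the 4 per list with the largest called difference, and a list has no test of its own. Members and lists were chosen with earlier results of these data known.

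The labels give the same 3 animals in each population. Deviations from the population means correlated across genes between arrays of 1 animal, with a mean r of 0.266 (0.086 to 0.432, over 0.1 in 17 of 18 pairs). Arrays of 1 animal were thus somewhat alike, and the source of this likeness was not tested. The main fit had no term for the animal. With 3 arrays a population, precision is limited by their number. Alternatives were the animal as a block, other scalings, the mean of all probe sets, a filter on dim genes, limma-trend, fits of 2 populations, and leaving out each animal and each array. The other probe sets of each member were added after seeing the data.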

Additional observations from a re-analysis of the deposited data

How the results depend on the processing

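Of 22 called differences of members, 9 stayed called under every alternative run on the brightest probe sets (15 or 16 each): the 4 of Gpc6 other than Dlk1+ Sca1+ minus reticular, the 4 of Sdc2 other than Dlk1- Sca1+ minus Dlk1+ Sca1+, and Gpc4 in Dlk1- Sca1+ minus reticular, whose highest adjusted p was 0.05 by limma. With the animal as a replicate block, 6 members passed the F-test, and the counts were 3 in papillary minus reticular (Gpc2 added, -0.29, adjusted p = 0.0384, limma) and 3 in papillary minus Dlk1- Sca1+ (Sdc3 added, 0.32, adjusted p = 0.0128, limma). The block changed no other call of a member. With only 2 populations in the fit, 2 members were called in Dlk1+ Sca1+ minus reticular and 1 in Dlk1- Sca1+ minus Dlk1+ Sca1+, and fewer arrays entered. Leaving out 1 animal or 1 array gave 3 to 6 members by the F-test, 2 to 3 in papillary minus reticular, 2 to 5 in papillary minus Dlk1+ Sca1+, 2 to 4 in papillary minus Dlk1- Sca1+, 1 to 4 in Dlk1+ Sca1+ minus reticular, 3 to 6 in Dlk1- Sca1+ minus reticular and 1 to 3 in Dlk1- Sca1+ minus Dlk1+ Sca1+. Fewer arrays entered these fits too. With other probe sets, some signs turned. Sdc4 was at -0.01 in Dlk1- Sca1+ minus reticular with the mean of its probe sets, and its second probe set gave -0.0833 there and -0.0133 in Dlk1+ Sca1+ minus reticular. The dimmest probe set of Gpc6 was at 0.14 in Dlk1+ Sca1+ minus reticular, where the brightest was called at -0.37, and the cause was not tested. Leaving out 1 animal or array also turned signs. The ranges were -0.0433 to 0.407 for Sdc4 in papillary minus Dlk1- Sca1+, -0.07 to 0.185 in Dlk1+ Sca1+ minus reticular, -0.23 to 0.245 in Dlk1- Sca1+ minus reticular and -0.3 to 0.18 in Dlk1- Sca1+ minus Dlk1+ Sca1+. In that last comparison they were -0.055 to 0.19 for Gpc1 and -0.0717 to 0.0483 for Gpc2. They were -0.0167 to 0.193 for Gpc4 in papillary minus Dlk1- Sca1+ and -0.0233 to 0.132 for Gpc6 in papillary minus reticular. For dim probe sets such as that of Gpc2, signal near the low end of the scale limits what can be seen.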

Other observations

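Growth factors that bind heparan sulfate were read beside the proteoglycans. Of 17 measured, 11 were lower and 1 was higher in papillary against reticular cells, where 13.6% of all genes were lower, and the list's median difference was -0.62 against -0.01 over all genes. Papillary cells had 4 higher and 7 lower against Dlk1+ Sca1+ cells, where 14.1% and 13.9% of all genes were higher and lower, and 5 higher and 7 lower against Dlk1- Sca1+ cells, where the shares were 13.1% and 13.3%. In Dlk1+ Sca1+ against reticular cells 1 was higher and 5 were lower, with shares of 4.06% and 4.37%, and in Dlk1- Sca1+ against reticular cells 1 was higher and 8 were lower, with shares of 9.36% and 8.8%. In Dlk1- Sca1+ against Dlk1+ Sca1+ cells 6 were lower, where 4.13% of all genes were lower. The list medians in these 5 comparisons lay between -0.20 and -0.06. Ptn, which encodes pleiotrophin, a ligand of the protein made by Sdc3, was at 7.5 ± 0.21 in papillary, 8.42 ± 0.51 in Dlk1- Sca1+, 10.64 ± 0.05 in Dlk1+ Sca1+ and 11.04 ± 0.16 in reticular cells (SD, n = 3). Papillary minus reticular was -3.54 ± 0.20 for it, an 11.6-fold lower level (adjusted p = 3.09e-08, limma), called in 3 of 3 probe sets. Dlk1- Sca1+ minus Dlk1+ Sca1+ was -2.22 ± 0.20 (adjusted p = 2.39e-05, limma), called in 2 of 3. The relative of Ptn, Mdk or midkine, was lower in Dlk1- Sca1+ than in Dlk1+ Sca1+ cells, at -1 ± 0.09 (adjusted p = 3.03e-05, limma).

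Fgf7, a mesenchymal growth factor for keratinocytes, was at -2.49 ± 0.11 in papillary minus Dlk1+ Sca1+ cells (adjusted p = 2.1e-09, limma) and at -1.84 ± 0.11 in Dlk1- Sca1+ minus Dlk1+ Sca1+ cells (adjusted p = 1.03e-06, limma). Hgf was at -2.20 ± 0.17 in papillary minus reticular cells (adjusted p = 4.97e-07, limma). Wnt5a was lower in Dlk1+ Sca1+ than in reticular cells, at -2.24 ± 0.23 (adjusted p = 4.84e-05, limma). Hgf was at -0.89 in Dlk1- Sca1+ minus Dlk1+ Sca1+ cells (adjusted p = 0.00486, limma), called in 1 of 3 probe sets. That call was lost without animal 1 (adjusted p = 0.0922, limma).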
